A study of Mus musculus with 13 samples.

Results

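The genes described here are 37 markers of medullary thymic epithelial cells (medullary TEC) and of the mimetic cells among them, of 24394 gene symbols counted. They were listed by name, with earlier results of these data already known. They are receptors and transcription factors of medullary differentiation, a chemokine, its scavenging receptor and a junction protein. Also listed were markers of tuft, microfold, skeletal muscle, neuroendocrine, ciliated and secretory cells. All 37 are in the table of counts. The study followed the programming of mouse fibroblasts towards thymic epithelium by the transcription factor Foxn1, and RNA was sequenced from 13 libraries in 6 groups.

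Primary embryonic fibroblasts (MEF) of genotype iFoxn1/+, which carry a Foxn1 transgene that Cre recombinase switches on, were the starting cell type at E13.5 (2 libraries). Induced thymic epithelial cells (iTEC) came from such fibroblasts after nucleofection with a pPGK-Cre-bpA plasmid and were collected at day 2 (2 libraries), day 10 (3 libraries) and day 12. The day 12 libraries held cells either negative (2 libraries) or positive (2 libraries) for the epithelial surface protein Epcam. Fetal TEC at E15.5 were the positive control (2 libraries). How they were isolated, and their genotype, the labels do not say, and no label states that libraries of a group came from separate cultures or embryos. The p-values therefore measure the spread between libraries, which may be technical.

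Medullary TEC teach developing T cells to tolerate the body's own proteins. Signals from RANK (Tnfrsf11a), Cd40 and the lymphotoxin beta receptor (Ltbr) reach the nucleus through the non-canonical NF-kB subunits Relb and Nfkb2, and the regulators Aire and Fezf2 then drive many genes that other tissues normally own. Mimetic cells are medullary TEC that take on much of the programme of a peripheral cell type, such as tuft, muscle or secretory cells, under the transcription factor that defines that type elsewhere.

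Levels are given as counts-per-million (CPM) after scaling of library sizes, and differences as log2 changes with their standard error (SE). A gene was called where the adjusted p was under 0.05 (edgeR quasi-likelihood test, Benjamini-Hochberg over 17004 tested genes). Libraries held 35805780 to 86465460 counts. The smallest level taken as detectable, 3 counts, lay between 0.0300 and 0.0776 CPM per library. Foxn1 measured 13 and 18.3 CPM in MEF, 292 to 468 in iTEC and 361 and 362 in fetal TEC. Epcam was at 312 and 574 CPM in fetal TEC, 4.80 and 30.6 in Epcam-positive, 0.290 and 0.560 in Epcam-negative cells and 0 in MEF. The 14 fibroblast markers summed to 71740 and 83580 CPM in MEF and 5955 and 4127 in fetal TEC. Both fetal TEC libraries and the second Epcam-positive library had no rank correlation of level with transcript length (rho -0.0619 to -0.00124), against 0.294 to 0.339 in the other 10, so long transcripts are low in these 3 relative to the rest. MEF and Epcam-negative libraries expressed Xist, and the day 2, day 10 and Epcam-positive libraries Y-linked genes, so sex and these groups cannot be told apart (fetal TEC had both). Xist was at 923 and 688 CPM in Epcam-negative and 1.27 and 0 CPM in Epcam-positive libraries, so these were not fractions of the same cells. Nor did the MEF libraries come from the cultures sampled at day 2 and day 10. The second Epcam-positive library alone stood near fetal TEC in summed TEC markers (42660 CPM, against 33720 and 50280 in fetal TEC and 4503 in the first Epcam-positive library). Krt8, Krt18 and Ccl25, at 11170, 13380 and 14950 CPM, made up most of that sum. Prss16 was at 24.7 CPM there, against 11550 and 14170 in fetal TEC, and Epcam and Psmb11 were also lower. Krt8, Ccl25 and Cd83 were above both fetal TEC libraries. The fibroblast markers of this library summed to 25450 CPM, with Sparc at 18200 CPM. Gapdh, which nearly every cell uses, was listed between 0 and 7.2 CPM in the 10 libraries with a length trend, so a 0 is given as a listed value and not as absence.

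Most of these genes were seen in fetal TEC and not in the cultures. At least 1 CPM was reached by 34 and 30 of the 37 in the fetal TEC libraries, but by 8 to 12 in each of the other 11 libraries. Listed at 0 in all 11 were 9 genes: Aire, Fezf2, Ccl21a, Cldn5, Myog, Myod1, Chga, Gp2 and Spink1. The filter on low counts let 33 of the 37 be tested, all but Il25, Neurod1, Hnf4a and Spink1. Of these, 14 passed that filter only through fetal TEC and had to be higher there. They were Aire, Fezf2, Ccl21a, Cldn5, Spib, Trpm5, Gnb3, Myog, Myod1, Ckm, Actc1, Chga, Cftr and Gp2. The direction behind their adjusted p-values below was thus fixed by the filter. The other 19 passed it without fetal TEC.

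Against day 10 iTEC, 28 of the 33 were called higher in fetal TEC and 1, Dclk1, lower, where 59.3% of all tested genes were called (31.7% higher and 27.6% lower). Of the 19 that passed without fetal TEC, 14 were higher and 1 lower, with a median log2 change of 4.46. Over all 15816 genes that passed without fetal TEC, 27.3% were higher and the median was -0.11. Against MEF, 25 of the 33 were higher and Dclk1 lower (57.8% of all genes called, 31.5% higher and 26.3% lower). Against Epcam-positive cells 23 were higher and Dclk1 lower (35.6% of all genes called, 16.4% higher and 19.2% lower). Of the 19, 12 were higher than in MEF and 10 higher than in Epcam-positive cells. Over the 15816 genes the shares higher were 27.5% and 12.3%. These 3 comparisons share the fetal TEC libraries. Members called numbered 26 to 31 against day 10, 22 to 28 against MEF and 23 to 28 against Epcam-positive cells when single libraries were left out.

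**Figure D1:**
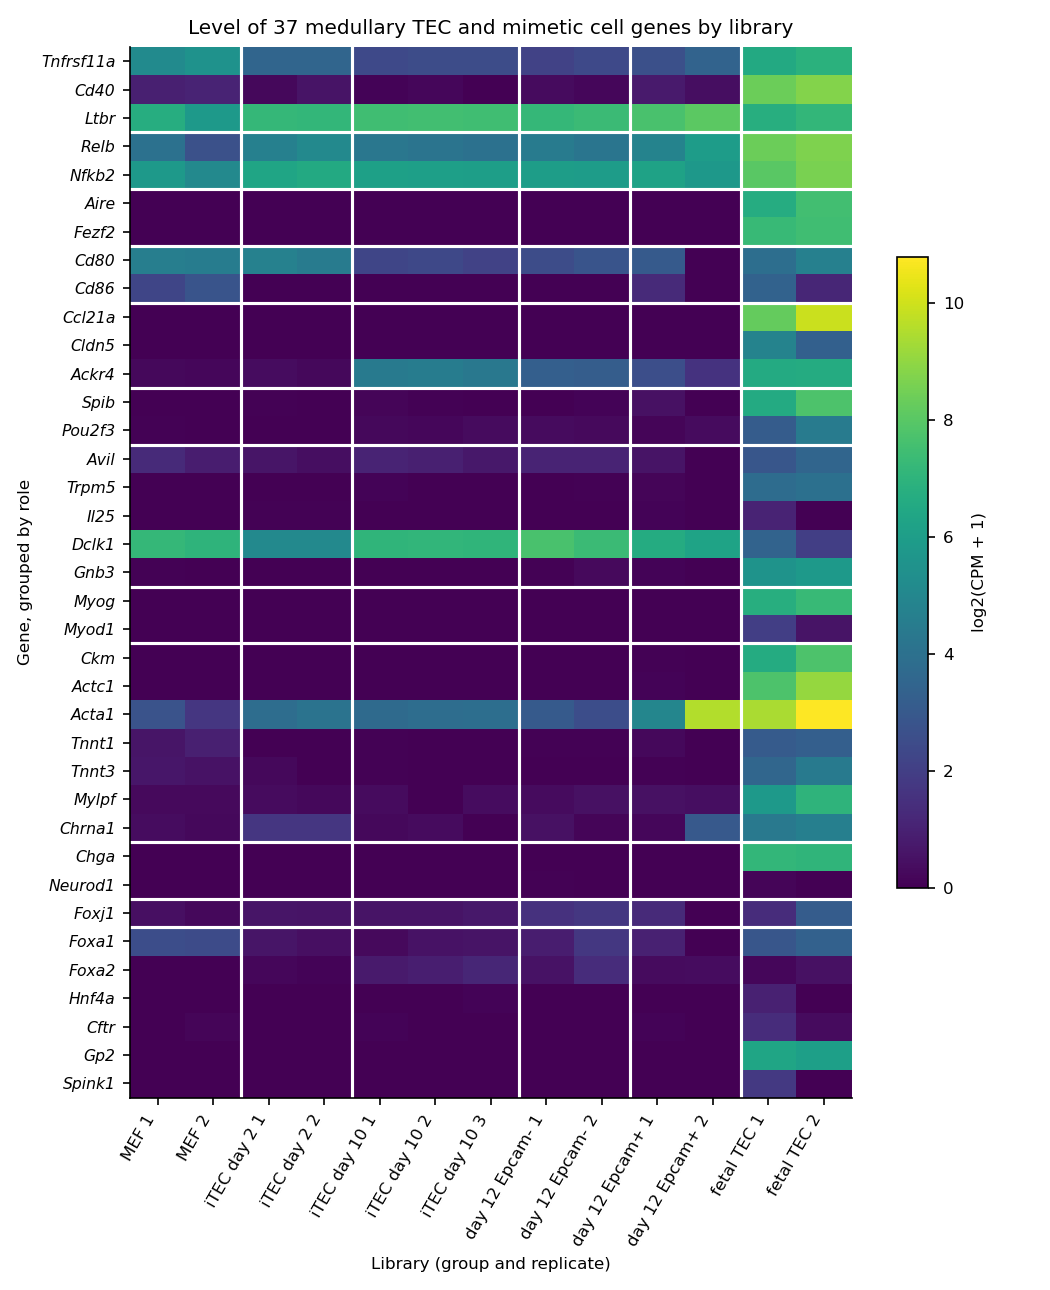
Level of each of the 37 genes (rows, grouped by role) in each of the 13 libraries (columns), as log2(CPM + 1) in colour. In the cultures, 22 rows stay under 1 CPM in all 11 libraries, while 30 genes reach 1 CPM in both fetal TEC libraries.

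Within the programming series the share of the 33 members called was near that of all genes. All these calls fell among the 19 members that passed the filter without fetal TEC. Of these 19, 36.8% were called at day 10 against MEF, where 17.1% of all genes passing this way were. At day 2 against MEF the shares were 10.5% and 5.92%, and in Epcam-negative cells 15.8% and 12.8%. Between day 2 and day 10, 21.1% of the 19 were called, also a larger share. Between the day 12 groups none was. At day 2, 2 of 33 were lower than in MEF (Tnfrsf11a and Dclk1) and none higher, where 5.52% of all tested genes were called (2.87% higher and 2.65% lower). At day 10, 3 were higher than in MEF (Ltbr, Ackr4 and Foxa2) and 4 lower (Tnfrsf11a, Cd40, Cd86 and Tnnt1), where 16% of all genes were called (9.42% higher and 6.58% lower). From day 2 to day 10, Ackr4, Pou2f3 and Dclk1 were called higher and Tnfrsf11a lower (12.6% of all genes called, 8.24% higher and 4.41% lower). Epcam-negative cells had higher Ackr4 and Foxa2 and lower Tnfrsf11a than MEF (11.9% of all genes called, 7.37% higher and 4.53% lower). Between Epcam-positive and Epcam-negative cells no member was called by edgeR, where 0.259% of all genes were (0.241% higher and 0.0176% lower); 7 had an unadjusted p under 0.05, and DESeq2's Wald test called 3. The wide spread of the Epcam-positive pair enters each of these tests. Without its replicate 1, or without its replicate 2, the members called rose from 2 to 10 at day 2, from 7 to 11 at day 10, from 4 to 8 between these days and from 3 to 10 in Epcam-negative cells. The 0 between the day 12 groups became 9 without replicate 1. The day 2 count was 0 without MEF library 2 or either day 2 library, and 1 without MEF library 1 or any day 10 or Epcam-negative library. The day 10 count was 3 without MEF library 2 and 4 without any day 10 or Epcam-negative library. The count between these days was 1 without a day 2 library or day 10 replicate 2, and 2 without another day 10 or an Epcam-negative library.

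Tnfrsf11a encodes RANK, the receptor of the ligand that starts medullary differentiation. It measured 34.5 and 44.0 CPM in the MEF libraries, 10.6 and 10.4 at day 2, 4.18, 4.66 and 4.73 at day 10, 3.41 and 4.17 in Epcam-negative cells, 5.22 and 9.83 in Epcam-positive cells, and 92.9 and 119 in fetal TEC. The groups ran down from fetal TEC to MEF to day 2 without overlap, and all later cultures lay below day 2. Its level fell by 3.12 on the log2 scale from MEF to day 10 (SE 0.32, adjusted p = 2.61e-04), an 8.68-fold difference, and was 4.55 ± 0.34 higher in fetal TEC than at day 10 (SE, adjusted p = 2.01e-05). The fall to day 2, 1.91 in size (log2 change -1.91, adjusted p = 0.0137), was lost without MEF library 2 or either day 2 library (highest adjusted p 0.144), and with an offset for transcript length (adjusted p = 0.0953). The difference between fetal TEC and MEF (log2 1.44, adjusted p = 0.00808) was lost without MEF library 1 (adjusted p = 0.0542).

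MEF libraries also held macrophage and dendritic cell markers: the 20 listed summed to 3696 and 3944 CPM there, with 18 at 1 CPM or more, against 15.2 to 17.1 at day 2, 63.9 to 71.5 at day 10, 52.9 to 67.6 in Epcam-negative, 304 to 329 in Epcam-positive cells and 957 to 1062 in fetal TEC. The Epcam-positive libraries differed in which markers made up these sums. The second held mostly Fcgr3 (240 CPM) and Cd14 (64.7 CPM), with C1qa, Adgre1, Ptprc and Tyrobp listed at 0. The first held Lyz2 at 76.1 CPM and C1qa at 25.4 CPM. Fcgr3 was also at 45.5 to 53.7 CPM at day 10 and at 30.7 and 43.5 CPM in Epcam-negative cells. Macrophages and dendritic cells express Tnfrsf11a, Cd40, Cd80 and Cd86 as well, and the part of these cells in the values was not tested. In bulk RNA, fewer cells of a type and less RNA per cell cannot be told apart.

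Cd40, which receives the Cd40 ligand of T cells, reached 329 and 445 CPM in fetal TEC. It stood at 0.926 and 1.08 CPM in MEF and at no more than 0.736 CPM in any iTEC library. Fetal TEC exceeded day 10 by 12.4 ± 0.91 on the log2 scale (SE, adjusted p = 2.01e-05) and MEF by 8.59 ± 0.93 (adjusted p = 1.88e-04), a 386-fold difference. Leaving out day 10 replicate 2 moved the first of these to 13. From MEF to day 10 Cd40 fell by 3.81 (adjusted p = 0.00847), a call that was lost without MEF library 2 (adjusted p = 0.0511) and that grew to a log2 change of -4.41 without day 10 replicate 2.

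Ltbr, the lymphotoxin beta receptor, was between 54.7 and 265 CPM in every library. It measured 105 and 54.7 CPM in MEF, 146 and 142 at day 2, 179 to 182 at day 10, 145 and 162 in Epcam-negative, 208 and 265 in Epcam-positive cells, and 109 and 140 in fetal TEC. Day 10 was 2.26-fold above MEF (log2 1.17 ± 0.31, SE, adjusted p = 0.0294). That call ended when any one of 8 libraries was left out (MEF library 2, the day 2, the day 10 or the Epcam-negative libraries; highest adjusted p 0.193). Fetal TEC did not pass the test against MEF (adjusted p = 0.114, though it did without MEF library 1) or day 10 (adjusted p = 0.150). Ltbr was called lower in fetal TEC than at day 10 with library size alone, with the length offset and with only the groups compared. It was also called lower than in Epcam-positive cells with DESeq2 and with the length offset.

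The subunits downstream of these receptors were present in every library and highest in fetal TEC. Relb, which acts in a complex with the processed form of Nfkb2, measured 325 and 415 CPM in fetal TEC, 15.4 to 18.2 at day 10, 25.0 and 32.5 at day 2, 17.5 and 21.2 in Epcam-negative cells and 15.1 and 5.48 in MEF. The Epcam-positive libraries were at 27.6 CPM, within the range of day 2, and 61.7 CPM. Fetal TEC exceeded day 10 by 4.46 ± 0.48 (SE, log2, adjusted p = 1.39e-04), and MEF by 5.17 (6.09 without MEF library 1). Nfkb2 was at 257 and 392 CPM in fetal TEC against 64.9 to 68.6 at day 10, a log2 change of 2.28 ± 0.30 (SE, adjusted p = 4.07e-04). Neither subunit passed the test at day 2, at day 10 or in the Epcam-negative cells against MEF, where their log2 changes were 0.47 to 1.49. Both day 2 changes, 1.49 for Relb and 0.95 for Nfkb2, were called without either Epcam-positive library.

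Of 22 other tested genes of this NF-kB pathway, 13 were higher and 2 lower in fetal TEC than at day 10, and 2 higher and 1 lower at day 10 than in MEF. The shares over all genes given above, 59.3% and 16%, are the background of these and the other list counts, and list genes that passed the filter only through fetal TEC had to be higher there. Of the 20 that passed without it, 11 were higher and 2 lower, with a median log2 change of 1.1 against day 10. The 13 higher included the ligands Tnfsf11, Lta, Ltb and Tnfsf14. Thymocyte markers summed to 1477 and 684 CPM in fetal TEC, and the part of lymphocytes in these values was not tested. Without fetal TEC replicate 1 the 13 became 6, and the 2 lower ones ran from 1 to 5 over the fits with 1 library left out. The 2 higher at day 10 ran from 1 without MEF library 1 to 6 without either Epcam-positive library. Nfkbia, the inhibitor that NF-kB itself induces, stood at 1892 and 2496 CPM in fetal TEC and 64.1 to 68.0 at day 10 (log2 5.04 ± 0.59, SE, adjusted p = 2.25e-04). Tnfrsf11b, the decoy receptor of the RANK ligand, was higher at day 10 (203 to 209 CPM) than in MEF (48.6 and 59.7 CPM; adjusted p = 0.00348). Day 2 stood above both, at 871 and 798 CPM, and fetal TEC (123 and 179 CPM) did not pass the test against day 10. Tnfrsf1a, a receptor of tumour necrosis factor, was lower in fetal TEC (73.7 and 76.0 CPM) than at day 10 (155 to 158 CPM; adjusted p = 0.0241).

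**Figure D2:**
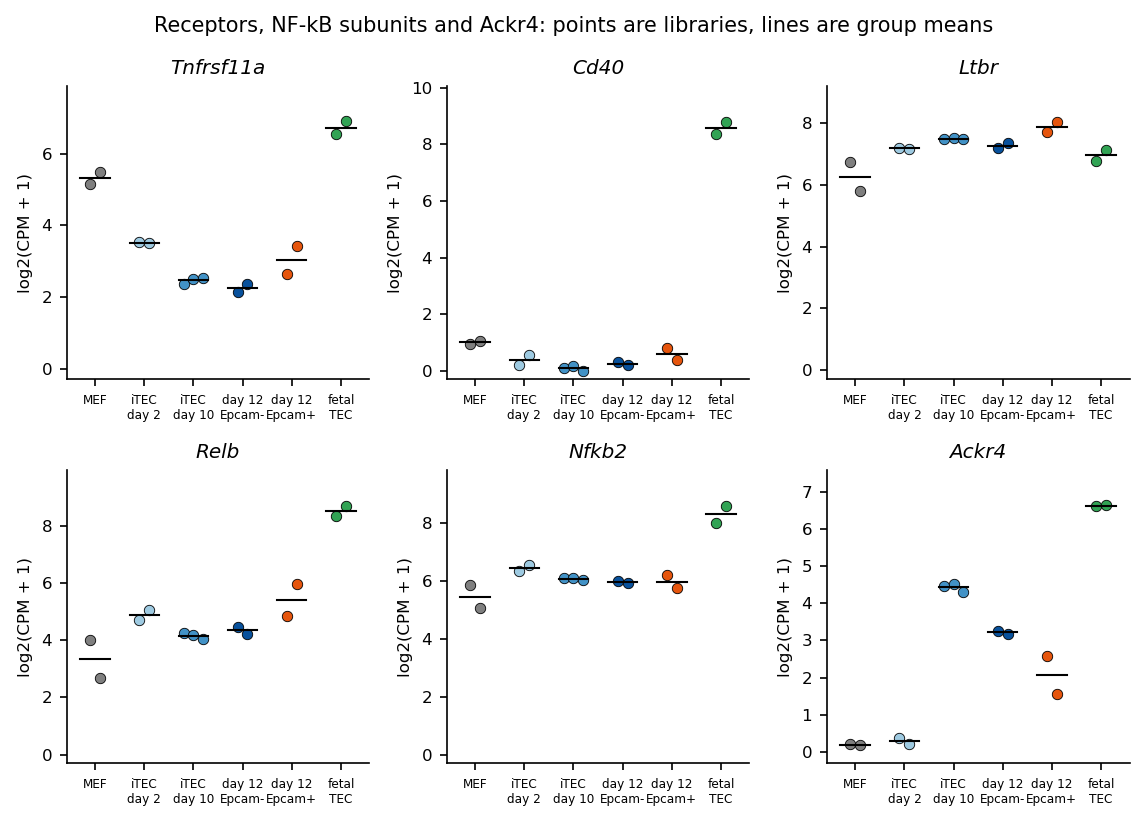
Tnfrsf11a, Cd40, Ltbr, Relb, Nfkb2 and Ackr4 as log2(CPM + 1) on the vertical axis by group on the horizontal axis. Each point is a library and each line the mean of its group's points; Tnfrsf11a is lower at day 10 than in MEF, Ltbr lies between 54.7 and 265 CPM, and Ackr4 is higher from day 10 on than in MEF.

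Aire, the regulator that opens tissue-restricted genes in medullary TEC, was at 101 and 183 CPM in fetal TEC and listed at 0 in the other 11 libraries. Fezf2, which acts on a partly separate set of such genes, was at 151 and 177 CPM and likewise listed at 0 elsewhere. With 3 counts over the group as the floor, Aire was at least 6481-fold and Fezf2 at least 7700-fold higher in fetal TEC than at day 10 (edgeR adjusted p = 9.09e-04 and 4.35e-04). Gapdh was listed at only 0.440 to 7.2 CPM at day 10, against 150 and 128 in fetal TEC. These and all later bounds thus describe listed counts, and not how far expression differed. Aire and Fezf2 passed the filter only through fetal TEC, so these p-values do not test the direction. Against Epcam-positive cells the bounds were 5734-fold and 6813-fold. A bound falls by construction when a library at 0 is left out, since fewer counts were then searched: without day 10 replicate 1 those of Aire and Fezf2 were 3539-fold and 4205-fold, and without Epcam-positive replicate 1 1774-fold and 2108-fold.

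Of 15 tested tissue-restricted antigens, secretory and hormonal proteins that medullary TEC express out of place, 13 were higher in fetal TEC than at day 10 and none lower. Of the 15, 13 passed the filter only through fetal TEC, and of the 2 others 1 was higher. Reg3g, an antibacterial lectin of the gut, was at 414 and 519 CPM in fetal TEC and listed at 0 in all day 10 libraries. Csn2, a milk casein, was at 225 and 419 CPM there and listed at 0 in all other libraries. Sprr1a, a cornified envelope protein, was the one antigen called at day 10 against MEF, with 32.2 to 34.1 against 0.525 and 1.63 CPM (log2 4.95, adjusted p = 0.00584), and that call was lost without MEF library 1. It did not pass the test between fetal TEC (44.4 and 128 CPM) and day 10 (adjusted p = 0.112).

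Of 23 other medullary TEC genes tested, 14 were higher and 1 lower in fetal TEC than at day 10. Of the 20 that passed without fetal TEC, 12 were higher, with a median log2 change of 2.93. At day 10, 9 were higher than in MEF (among them Krt5, Krt14, Krt17, Cldn4 and Hdc) and 2 lower (Ctss and Ceacam1), with a median of 1.76. The 9 ran from 5 without MEF library 2 to 12 without either Epcam-positive library. Krt17, a keratin, was at 1.42 to 2.77 CPM at day 10, listed at 0 in MEF, and at 2835 and 4656 CPM in fetal TEC. Hdc, which makes histamine, rose from 0.111 and 0 CPM in MEF to 8.63 to 12.4 CPM at day 10 and stood at 494 and 771 CPM in fetal TEC. Pdpn, a membrane glycoprotein, was lower in fetal TEC (5.42 and 3.04 CPM) than at day 10 (71.3 to 74.0 CPM; adjusted p = 0.00371).

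The costimulatory ligands Cd80 and Cd86, which bind Cd28 on T cells, followed a different course. Cd80 measured 23.4 and 22.0 CPM in MEF, 25.5 and 21.4 at day 2, 3.31 to 4.07 at day 10, 4.66 and 5.89 in Epcam-negative cells, 7.43 and 0 in Epcam-positive cells and 13.9 and 25.4 in fetal TEC. No comparison of Cd80 was called (fetal TEC against day 10, log2 2.41 ± 1.25, SE, adjusted p = 0.121; day 10 against MEF, -2.62 ± 1.26, SE, adjusted p = 0.202). Without either Epcam-positive library both of these were. Cd86 was listed at 3.84 and 5.98 CPM in MEF, at 0 in all day 2, day 10 and Epcam-negative libraries, at 1.45 and 0 in Epcam-positive cells and at 9.41 and 1.26 in fetal TEC. Fetal TEC was at least 280-fold above day 10 (adjusted p = 0.0168), but at least 59.6-fold without fetal TEC replicate 1, where the call was lost (adjusted p = 0.0648). The fall of Cd86 from MEF to day 10 (adjusted p = 0.0489) was lost without any single library other than those of the Epcam-positive pair.

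Ccl21a, the chemokine that draws positively selected thymocytes into the medulla, was at 301 and 986 CPM in fetal TEC and listed at 0 elsewhere. The bound against day 10 was at least 28270-fold (adjusted p = 0.00157), and at least 46790-fold or 14280-fold without fetal TEC replicate 1 or 2. The near-identical copy Ccl21b was at 297 and 542 CPM, so reads could be split between them and Ccl21a is uncertain as a single gene. Lymphatic endothelium also makes Ccl21a. Its 7 markers summed to 17.4 and 7.77 CPM in fetal TEC and 19.0 to 191 CPM in the cultures. Lyve1 and Fgl2 were lower in fetal TEC than at day 10. Prox1, the factor that defines this endothelium, was higher, at 4.52 and 1.91 CPM against 0 to 0.186 CPM at day 10 (adjusted p = 0.0161). The part of lymphatic endothelium in the Ccl21a value was not tested.

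Cldn5, a claudin of endothelial tight junctions, was at 27.1 and 8.86 CPM in fetal TEC and listed at 0 in all cultures. It was at least 914-fold above day 10 (adjusted p = 0.00478), or at least 420-fold and 1287-fold without fetal TEC replicate 1 or 2. The 12 endothelial markers summed to 189 and 156 CPM in fetal TEC, with 8 at 1 CPM or more in both libraries. In the cultures they summed to 8.50 to 36.3 CPM. The part of endothelial cells in the Cldn5 value was not tested.

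Ackr4 was called higher in 3 comparisons within the programming series. It encodes a scavenging receptor that removes Ccl19, Ccl21 and Ccl25 and is also known as a reporter of cortical TEC. MEF libraries held 0.166 and 0.140 CPM and day 2 libraries 0.290 and 0.169. Day 10 libraries held 21.0, 22.0 and 18.9 CPM, Epcam-negative cells 8.63 and 7.99, Epcam-positive cells 5.00 and 1.95, and fetal TEC 96.6 and 98.2. MEF and day 2 overlapped, day 10 lay above both day 12 populations, and fetal TEC lay above all.

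Ackr4 rose 135-fold from MEF to day 10 (log2 7.05 ± 0.56, SE, adjusted p = 8.49e-05) and 54.3-fold in Epcam-negative cells (log2 5.74, adjusted p = 2.19e-04). Both calls held in every fit with 1 library left out. Fetal TEC was 4.72-fold above day 10 (log2 2.24 ± 0.39, SE, adjusted p = 0.00149) and 28.0-fold above Epcam-positive cells (log2 4.80, adjusted p = 2.32e-04; 5.63 without Epcam-positive replicate 1). Between the day 12 populations the log2 change was -1.25 ± 0.43 (SE, adjusted p = 0.206), which did not pass.

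Among regulators of tuft and microfold cells, Spib, which defines microfold cells, was at 95.9 and 218 CPM in fetal TEC and at 0.391 CPM or less in every culture. The log2 change against day 10 was 11.5 ± 1.49 (SE, adjusted p = 5.23e-04), or 12.5 without day 10 replicate 1 and 10.8 without fetal TEC replicate 2. B cells and plasmacytoid dendritic cells express Spib as well. Of their 12 markers 8 were tested, and 4 were higher in fetal TEC than at day 10 (Cd79b, Vpreb1, Igll1 and Cd22) and Tcf4 lower. Cd79b, a chain of the B cell receptor, was at 20.8 and 18.1 CPM in fetal TEC and listed at 0 elsewhere, while Pax5 and Siglech were listed at 0 in every library. The 12 summed to 225 and 219 CPM in fetal TEC and to 405 to 920 CPM in the cultures. There Tcf4, Bst2 and Ebf1, which other cells express too, made up most of it. The part of these cells in the Spib value was not tested.

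Pou2f3, the master regulator of tuft cells, was at 7.94 and 21.4 CPM in fetal TEC and at 0.244 CPM or less elsewhere. Fetal TEC was 6.32 ± 0.95 above day 10 (SE, log2, adjusted p = 0.00106; 5.42 without fetal TEC replicate 2). Against day 2, where it was listed at 0, Pou2f3 was at least 8.05-fold higher at day 10 (adjusted p = 0.0258), at levels of 0.128 to 0.233 CPM; that call was lost without any one of the day 2, day 10 or Epcam-negative libraries (highest adjusted p 0.175).

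Among the tuft effectors, Gnb3 and Trpm5 of taste signalling, and also Avil, were called higher in fetal TEC than at day 10. Gnb3, a G protein subunit, was at 45.3 and 54.7 CPM against at most 0.210 CPM elsewhere, at least 2340-fold above day 10 (adjusted p = 7.34e-04). Trpm5, the cation channel of taste transduction, was at 12.9 and 14.7 CPM against at most 0.115 CPM (log2 9.0 against day 10, adjusted p = 0.00365; 12.7 without day 10 replicate 1). Avil, an actin-binding protein of the tuft, was at 6.43 and 10.6 CPM against 0 to 1.42 CPM. Its log2 change against day 10, 3.25 (adjusted p = 0.0239), did not pass without fetal TEC replicate 2 or any one of the day 10 libraries (highest adjusted p 0.0831). Il25, the cytokine tuft cells release, was not tested; it was at 1.1 and 0 CPM in fetal TEC and at 0.0690 CPM or less elsewhere.

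Dclk1, a kinase used to mark tuft cells, ran the other way. It measured 146 and 128 CPM in MEF, 32.6 in both day 2 libraries, 131 to 135 at day 10, 204 and 162 in Epcam-negative cells, 100 and 74.9 in Epcam-positive cells, and 9.83 and 2.96 in fetal TEC. Both fetal TEC libraries lay below all others. The log2 change from day 10 was -4.37 ± 0.51 (SE, adjusted p = 2.08e-04), -5.49 without fetal TEC replicate 1 and -3.76 without replicate 2. Its longest transcript has 7962 bases, and with an offset for transcript length the change was -2.47 (adjusted p = 0.00491). Dclk1 was also lower at day 2 than in MEF (log2 -2.07, adjusted p = 0.0336) and returned by day 10 (log2 2.02, adjusted p = 0.0167); the first call was lost with library size alone (adjusted p = 0.103), with the length offset (adjusted p = 0.0720) and without any MEF, day 2, day 10 or Epcam-negative library, and the second without a day 2 library or day 10 replicate 2.

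Of 16 other tested tuft cell genes, 10 were higher and 4 lower in fetal TEC than at day 10 (7 and 4 of the 13 that passed without fetal TEC, median log2 change 4.88), and without fetal TEC replicate 1 the 10 became 6. At day 10, 1 was higher than in MEF and 4 lower; with single libraries left out these ran from 0 without MEF library 1 to 2 without either Epcam-positive or fetal TEC library, and from 1 to 6. Ptgs1, the cyclooxygenase of tuft cells, was the one that was higher at day 10 (39.2 to 41.4 against 11.3 and 7.92 CPM, adjusted p = 0.0150) and was lower in fetal TEC (23.7 and 8.39 CPM). Among those lower at day 10 were Alox5 and Vav1, which blood cells also express. Vav1 was at 25.7 and 25.0 CPM in MEF, listed at 0 at day 10, and at 95.8 and 17.9 CPM in fetal TEC. Thymocyte markers summed to 1477 and 684 CPM in fetal TEC and to 6.18 CPM or less in the cultures. The part of thymocytes in the Vav1 value was not tested.

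Skeletal muscle genes included Acta1 and Actc1, the mimetic cell genes with the highest levels per transcript length in fetal TEC. To show what lies before their start sites, the 250 bases upstream of the RefSeq start (GRCm38.p6) are printed for 4 of them, 5′ to 3′ on the gene's strand. CAGCTG, a form of the E-box that myogenic factors bind, is in capitals. It is its own reverse complement, so both strands are covered by one search.
Acta1: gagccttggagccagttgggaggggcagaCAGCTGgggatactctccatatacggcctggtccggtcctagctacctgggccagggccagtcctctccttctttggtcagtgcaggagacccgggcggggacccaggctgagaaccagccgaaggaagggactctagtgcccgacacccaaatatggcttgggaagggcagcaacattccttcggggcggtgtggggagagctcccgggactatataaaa
Chrna1: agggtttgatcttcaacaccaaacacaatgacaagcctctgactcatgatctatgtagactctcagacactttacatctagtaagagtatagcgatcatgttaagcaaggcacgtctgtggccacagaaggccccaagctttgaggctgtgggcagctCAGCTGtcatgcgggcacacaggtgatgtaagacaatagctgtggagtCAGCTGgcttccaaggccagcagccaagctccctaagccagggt
Mylpf: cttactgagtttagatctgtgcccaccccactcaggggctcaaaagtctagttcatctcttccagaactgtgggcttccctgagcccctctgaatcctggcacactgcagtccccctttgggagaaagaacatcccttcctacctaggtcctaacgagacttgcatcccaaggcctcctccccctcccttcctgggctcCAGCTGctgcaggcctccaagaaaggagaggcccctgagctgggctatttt
Myog: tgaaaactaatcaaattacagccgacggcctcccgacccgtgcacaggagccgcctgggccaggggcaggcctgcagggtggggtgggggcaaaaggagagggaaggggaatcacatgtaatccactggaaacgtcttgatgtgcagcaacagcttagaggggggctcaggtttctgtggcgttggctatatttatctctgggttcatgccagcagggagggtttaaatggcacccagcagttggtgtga
These windows are chr8:123894776-123895025 (minus strand), chr2:73580339-73580588 (minus strand), chr7:127211358-127211607 (plus strand) and chr1:134289754-134290003 (plus strand). Acta1 holds 1 match, Chrna1 2, Mylpf 1 and Myog 0. Of 9 muscle genes among the members, 7 had a promoter in the table, and 4 of the 7 held CAGCTG (the fourth was Ckm), against 14.7% of 27025 genes. Of all 27 members with a promoter 8 held it. TATAAA, a form of the TATA box searched on both strands, was in 2 of the 7 (Acta1 and Tnnt1) and in 14.3% of all genes. A match describes letters only.

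Myog, the factor that drives myoblasts into differentiation, was at 107 and 154 CPM in fetal TEC and listed at 0 in all 11 cultures, at least 6049-fold above day 10 (adjusted p = 7.10e-04). Myod1, which acts before Myog in muscle, was far lower, at 3.02 and 0.466 CPM. Its bound against day 10 was at least 91.0-fold (adjusted p = 0.0214), but at least 22.1-fold and no longer called without fetal TEC replicate 1 (adjusted p = 0.0797), and it was not called by DESeq2 (adjusted p = 0.0994). Myf5, Pax3 and Pax7, which mark muscle progenitors, were listed at 0 in both fetal TEC libraries.

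The 7 genes of the muscle fibre were each at a higher level in the second fetal TEC library than in the first. Acta1, skeletal alpha-actin, was at 694 and 1771 CPM, Actc1, cardiac alpha-actin and an embryonic isoform of skeletal muscle, at 220 and 535, and Ckm, muscle creatine kinase, at 97.6 and 221. Mylpf, a light chain of fast fibres, was at 54.8 and 129 CPM, Tnnt3, fast troponin T, at 10.8 and 21.1, Tnnt1, slow troponin T, at 7.47 and 8.56, and Chrna1, a subunit of the acetylcholine receptor, at 19.8 and 23.9. Against day 10 all 7 were called higher.

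Actc1 was at least 16880-fold and Ckm at least 7140-fold above day 10 (10450-fold and 4630-fold without fetal TEC replicate 2, 25380-fold and 10470-fold without replicate 1). The log2 change was 9.02 ± 1.0 for Mylpf (SE, adjusted p = 1.64e-04; 8.27 without fetal TEC replicate 2) and 6.54 ± 1.1 for Acta1 (adjusted p = 0.00130; 5.70 without it). Tnnt1 and Tnnt3, with 3 counts each at day 10, were 377-fold (95% counting interval 128 to 1829) and 721-fold higher (246 to 3498). All 3 counts of each were in day 10 replicate 1, without which Tnnt1 was at least 206-fold and Tnnt3 at least 393-fold higher. Tnnt1 was also lower at day 10 than in MEF, where it had been at 0.539 and 0.943 CPM (adjusted p = 0.0368), a call lost without any single library other than the Epcam-positive pair and fetal TEC replicate 1.

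Acta1 was the one muscle gene with a high level in a culture. It measured 5.76 and 2.27 CPM in MEF, 13.7 and 16.4 at day 2, 12.5 to 14.0 at day 10, 7.21 and 4.80 in Epcam-negative cells, and 29.8 and 745 in the Epcam-positive libraries. The second of these lay within the range of fetal TEC. The log2 change between Epcam-positive and Epcam-negative cells, 6.01 ± 1.28 (SE), did not pass (edgeR adjusted p = 0.110), though it was called without Epcam-positive replicate 1 (6.95) and by DESeq2. Acta2, the smooth muscle actin of close sequence, was at 5335 CPM in the same library, 1305 in the first Epcam-positive one and 3393 and 4240 in MEF, where Acta1 was low. Actb, another actin, was at 26820 CPM in the second Epcam-positive library and at 17780 and 28690 CPM in fetal TEC. In the libraries with a length trend it was at 2456 to 5336 CPM. The sources used here do not say how reads shared by actins were assigned, and the part of such reads in the Acta1 values was not tested. Of the other muscle members, Chrna1 was at 7.16 CPM in the second Epcam-positive library and the rest at 0.308 CPM or less.

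Of 26 other tested skeletal muscle genes, 21 were higher and 1 lower (Pax3) in fetal TEC than at day 10, and of the 16 that passed without fetal TEC 11 were higher and 1 lower, with a median log2 change of 4.54. Actn3, an actinin of fast fibres, was at 297 and 418 CPM against 0.124 to 0.307 CPM at day 10 (log2 10.7 ± 1.32, SE, adjusted p = 2.82e-04). Des, the muscle intermediate filament protein, was at 52.0 and 53.9 CPM against 0.279 to 0.487 (log2 7.24, adjusted p = 0.00272). Chrnb1, another receptor subunit, did not pass (adjusted p = 0.655). At day 10 none of the 26 was higher than in MEF by edgeR (2 were without either Epcam-positive library) and 1, Tnni2, was lower (up to 3 with 1 library left out). The 12 cardiac markers summed to 54.3 and 37.7 CPM in fetal TEC and 7.49 to 9.46 at day 10. In fetal TEC, Nkx2-5 and Nppb were listed at 0 and Myl7 at 24.9 and 9.33 CPM. The labels do not say whether neighbouring tissue was removed from the fetal thymus, and the part of such tissue in the muscle values was not tested.

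**Figure D3:**
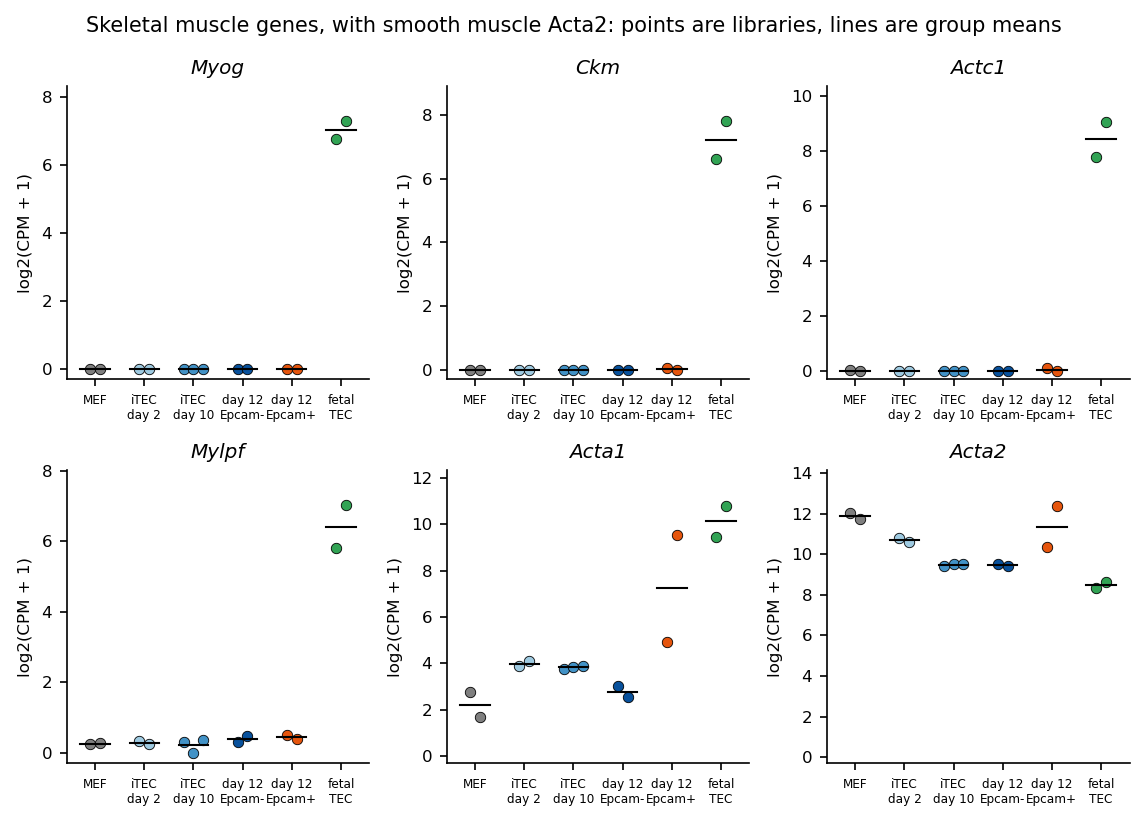
Myog, Ckm, Actc1, Mylpf, Acta1 and, for comparison, the smooth muscle actin Acta2 as log2(CPM + 1) by group. Points are libraries and lines the means of their points; the first 4 genes stay near 0 in all cultures, Acta1 has 1 Epcam-positive library at 745 CPM, and Acta2 is lowest in fetal TEC.

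Chga, the core protein of neuroendocrine secretory granules, was at 141 and 132 CPM in fetal TEC and listed at 0 elsewhere, at least 6501-fold above day 10 (adjusted p = 4.67e-04). The 2 fetal TEC libraries differed little, and the bound stayed between 6248-fold and 6692-fold without either. Neurod1, a transcription factor of endocrine and nerve cells, was not tested and was at 0.122 and 0 CPM. Of 17 other tested neuroendocrine genes, 11 were higher and 2 lower than at day 10 (9 and 2 of the 15 that passed without fetal TEC, median log2 change 4.29). Isl1, a factor of endocrine and motor neurons, was at 68.7 and 102 CPM against 0.480 to 0.974 (log2 6.80, adjusted p = 0.00231). Cpe, which processes prohormones, was lower in fetal TEC (46.9 and 22.8 CPM) than at day 10 (435 to 449 CPM, adjusted p = 8.80e-05), as was Cacna1a, a calcium channel (2.98 and 0.182 against 48.5 to 52.4 CPM). At day 10, Nkx6-2 and Calca were higher than in MEF, and 4 genes were without either Epcam-positive library. The 12 markers of thyroid, parathyroid and lung epithelium summed to 156 and 331 CPM in fetal TEC and to 9.20 CPM or less in the cultures, with Pth at 77.1 and 104 CPM and Sftpc at 41.2 and 168 CPM. Neuron and Schwann cell markers summed to 93.5 and 124 CPM in fetal TEC and to 18.9 to 195 CPM in the cultures.

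Foxj1, the master factor of motile cilia, was low throughout: 0.345 and 0.180 CPM in MEF, 0.526 and 0.494 at day 2, 0.464 to 0.621 at day 10, 1.92 and 2.33 in Epcam-negative cells, 1.47 and 0 in Epcam-positive cells, and 1.59 and 7.72 in fetal TEC. Epcam-negative cells thus overlapped fetal TEC. Foxj1 was called higher in fetal TEC than in MEF (log2 4.13, adjusted p = 0.0488), which was lost without fetal TEC replicate 2 (log2 2.57) and without any one of the MEF, day 2, day 10 or Epcam-negative libraries (highest adjusted p 0.214); without fetal TEC replicate 1 the log2 change was 4.85. It was not called against day 10 (adjusted p = 0.0615). Of 16 other ciliated cell genes tested, 12 were higher and 1 lower in fetal TEC than at day 10 (7 and 1 of the 11 that passed without fetal TEC, median log2 change 2.45; up to 3 lower with 1 library left out). Tuba1a, a tubulin of many cell types, was at 1118 and 1405 CPM against 371 to 374 (adjusted p = 0.00794), and Tppp3, a tubulin-binding protein, at 68.1 and 36 against 8.61 to 10.1 CPM (adjusted p = 0.0192). Gmnc and Rfx2 were higher at day 10 than in MEF (1 gene was without MEF library 1, and 4 without either Epcam-positive library).

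Gp2, a zymogen granule protein that also marks microfold cells, was at 79.6 and 67.9 CPM in fetal TEC and listed at 0 elsewhere, at least 3537-fold above day 10 (adjusted p = 7.82e-04). The other secretory and enterohepatic members were low. Foxa1, a pioneer factor of endoderm, was at 6.37 and 9.06 CPM in fetal TEC, 4.93 and 4.47 in MEF, and 0 to 2.39 in iTEC. It was higher in fetal TEC than at day 10 (log2 4.31, adjusted p = 0.0145), a call lost without day 10 replicate 1 (adjusted p = 0.0556), and was not called against MEF (adjusted p = 0.644).

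Foxa2, its close relative, was at higher levels at day 10 and in Epcam-negative cells than in fetal TEC. It was listed at 0 in MEF, at 0.145 and 0.0779 CPM at day 2, 0.728, 0.897 and 1.24 at day 10, 0.445 and 1.58 in Epcam-negative cells, 0.242 and 0.282 in Epcam-positive cells and 0.138 and 0.385 in fetal TEC. Day 10 was at least 37.2-fold and Epcam-negative cells at least 45.4-fold above MEF (adjusted p = 0.00487 and 0.00630), and both calls held in every fit with 1 library left out. The bounds were 15.2-fold and 18.5-fold without MEF library 1, 22.0-fold and 26.9-fold without MEF library 2, and the second 18.1-fold without Epcam-negative replicate 2. The difference between fetal TEC and day 10 did not pass (log2 -1.87, adjusted p = 0.101), but Foxa2 was called lower in fetal TEC with the length offset. Against MEF it was called higher in fetal TEC too, at least 9.95-fold, a call lost with only the groups compared.

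Cftr, the chloride channel of ducts, was at 1.56 and 0.243 CPM in fetal TEC and 0.100 CPM or less elsewhere; its call against day 10 (log2 5.11, adjusted p = 0.0471) was lost without any one of 11 libraries. Its log2 change was 3.20 without fetal TEC replicate 1, 5.87 without replicate 2 and 8.81 without day 10 replicate 1. Hnf4a, a factor of liver and gut, and Spink1, a trypsin inhibitor, were listed at 0.964 and 2.46 CPM in the first fetal TEC library, at 0 in the second, and were not tested.

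Of 21 other tested secretory, enterohepatic and microfold genes, 16 were higher and 1 lower (Sox8) in fetal TEC than at day 10 (7 and 1 of the 12 that passed without fetal TEC, median log2 change 4.08). Bpifa1, a secreted airway protein, was at 1043 and 1320 CPM in fetal TEC and listed at 0 in all cultures (adjusted p = 3.38e-04 against day 10). Creb3l1, a factor of the secretory pathway, did not pass against day 10 (adjusted p = 0.208) and was lower at day 10 (34.4 to 35.9 CPM) than in MEF (294 and 642 CPM, adjusted p = 0.00816). Tnfaip2, an actin regulator of microfold cells, did not pass in either comparison. At day 10, Cdx1, Sox8 and Wfdc2 were higher than in MEF and Ccl9 and Creb3l1 lower.

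Levels were also compared between genes per transcript length. In both fetal TEC libraries level had no rank correlation with transcript length, so this division can favour short transcripts there. Mylpf, with 766 bases, was below Fezf2 and Chga by CPM (54.8 and 129, against 151 and 177, and 141 and 132) but above them per length. Divided by the longest transcript, the highest members in fetal TEC were Acta1 with 480 and 1224 CPM per kilobase, Ccl21a with 346 and 1134, Actc1 with 150 and 363, Relb with 147 and 188 and Cd40 with 110 and 149. Mylpf, Myog, Nfkb2, Aire, Chga and Fezf2 followed at 52.3 to 169 CPM per kilobase, with ranges over the 2 libraries that overlapped or nearly so. Myod1 and Dclk1 were near the lower end, at 0.251 to 1.62 CPM per kilobase. Among the highest 10, Acta1, Ccl21a, Actc1 and Mylpf had libraries that differed by over 2-fold.

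**Figure D4:**
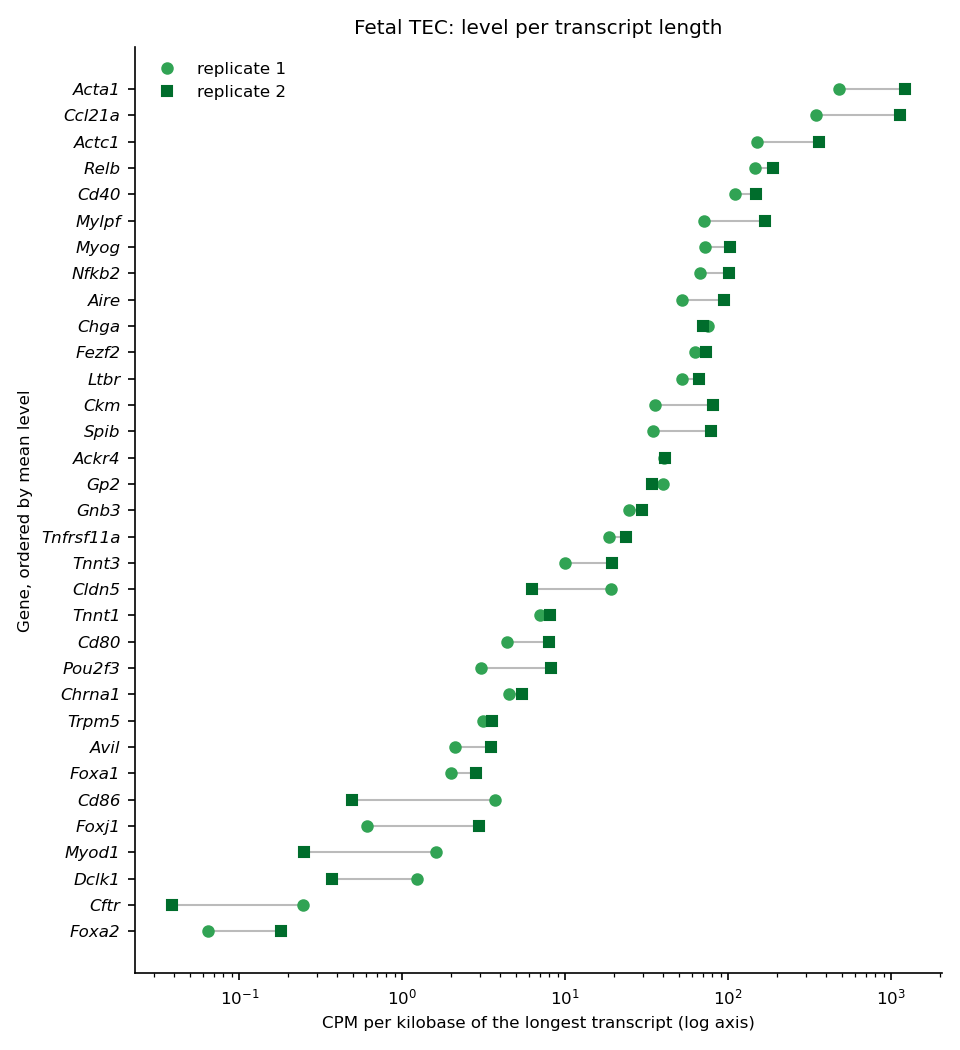
Level of the members above 0 in both fetal TEC libraries, in CPM per kilobase of the longest transcript on a log axis, ordered by mean level. Circles are replicate 1, squares replicate 2; Acta1 and Ccl21a lead, and Cd86 and Cftr are among those whose libraries lie far apart.

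**Figure D5:**
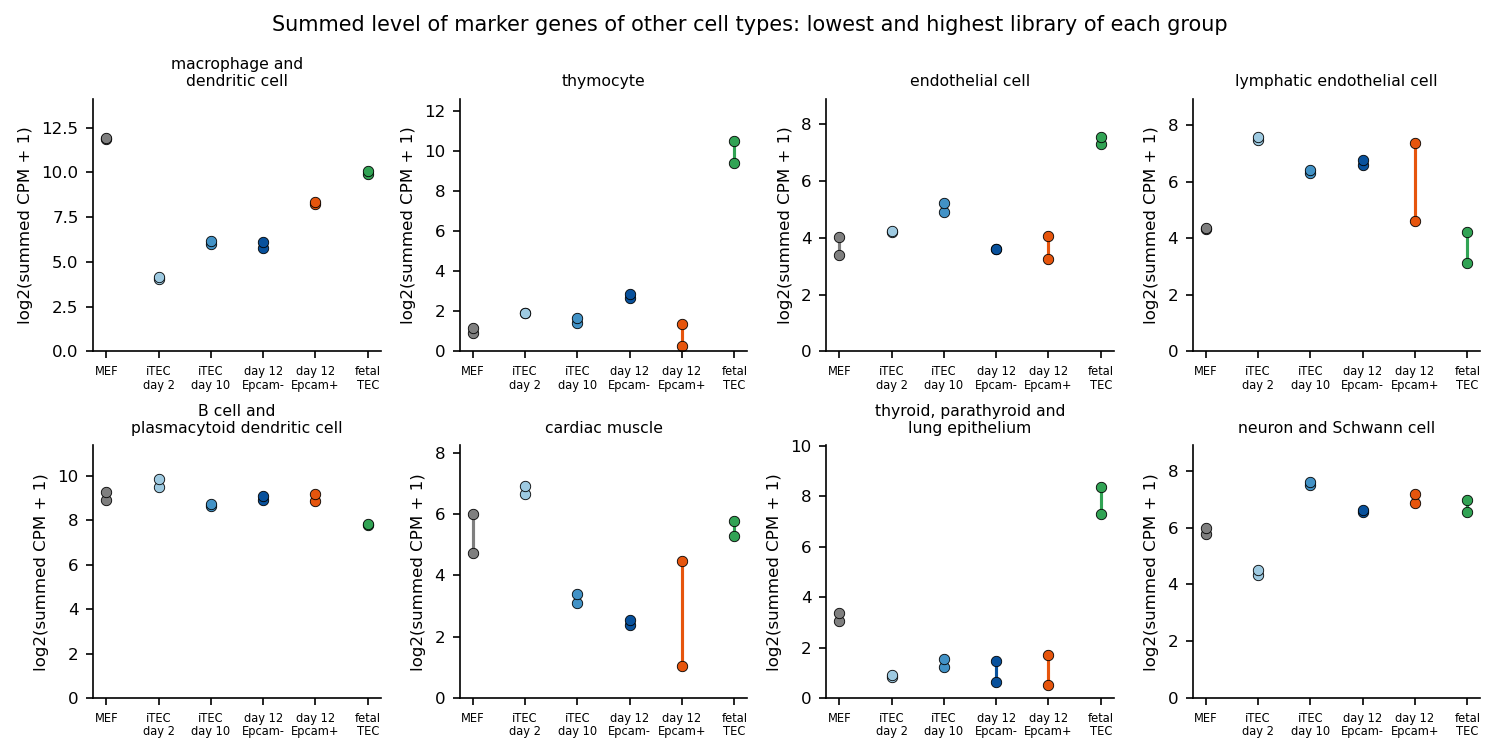
Summed level of marker genes of 8 other cell types, as log2(summed CPM + 1), by group; the 2 points of a group are its lowest and highest library. Macrophage and dendritic cell markers are highest in MEF (3696 to 3944 CPM), and thymocyte (684 to 1477 CPM) and endothelial markers (156 to 189 CPM) in fetal TEC.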

How the data were processed

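RNA of 13 libraries was sequenced. The deposited table holds whole, unscaled counts for each gene symbol. FastQC, Trimmomatic, HISAT2, SAMtools, StringTie, DESeq2 and mm10 are named, with no versions or settings, per the submitters' processing notes. The sources used here do not give the use of strand or the assignment of shared reads. MEF values come from columns labelled as lacking Cre, so a MEF library's number is only that of its column.

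From the counts, TMM factors (0.705 to 1.16) and CPM were computed in R 4.3.3 with edgeR 4.0.16. After filterByExpr by group (minimum count 10; 17004 of 24394 symbols), all libraries were fitted together by robust quasi-likelihood, with a mean per group, and 8 comparisons were tested. The SE is the log2 change over the root of F. A fold against a group at 0 is a bound from 3 counts over the group, and holds for listed counts only. Intervals are 95%, exact, and cover counting error only. Alternatives included DESeq2 1.42.0, other scalings and filters, and each library left out. The fit was tested on simulated data. Lengths and positions are from GENCODE M21 (95.7% of symbols matched), promoters from RefSeq (27 of 37 genes).

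Members and lists were chosen with earlier results of these data known. Every member with a group mean of at least 1 CPM was to be given by library, and each list by counts and its 3 highest genes by mean CPM. Other genes named were chosen after their values were seen.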

Additional observations from a re-analysis of the deposited data

How the results depend on the processing

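No member's change turned direction under any alternative where it was called. Counts of members called moved by over 1.5 times as follows. At day 2 against MEF, 2 became 1 with library size alone, 1 with an offset for transcript length (Tnnt1, with both others lost), 6 with only the groups compared, 10 without the Epcam-positive pair, 8 with DESeq2's Wald test and 12 with only the 10 libraries that had a length trend. At day 10 against MEF, 7 became 11 with only the groups compared, 11 without the Epcam-positive pair and 13 with the 10 libraries. At day 10 against day 2, 4 became 11, 8 and 8 under these settings, 7 with DESeq2 and 1 with the replicate block. For Epcam-negative cells against MEF, 3 became 9, 10 and 13, 8 with DESeq2 and 5 with the length offset. Between the day 12 groups, 0 became 3 with DESeq2 and 3 with the 10 libraries, where the lone Epcam-positive library is assumed to vary like the other groups. For fetal TEC against Epcam-positive cells, 24 became 10 with only these groups. The length offset and the 10 libraries were chosen after seeing the data. The cause of these moves was not tested.

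With single libraries left out, the counts ran from 0 to 10 at day 2 against MEF, 3 to 11 at day 10 against MEF, 1 to 8 between these days, 3 to 10 for Epcam-negative cells against MEF and 0 to 9 between the day 12 groups.

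Samples of the same number correlated only weakly in their deviations from the group means (-0.0203 to 0.217), so numbers were not taken to pair them. The replicate block gave 1, 0, 24 and 19 calls for day 10 against day 2, the day 12 groups, and fetal TEC against day 10 and against Epcam-positive cells. No paired analysis was possible against MEF because its columns could not be tied to single samples. Depth limits all statements on genes under 0.0776 CPM.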
